A study of Homo sapiens with 2 samples.

Results

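The zinc finger genes of human chromosome 19 were followed in HEK293T cells transfected with an RNA copy of a transfer RNA fragment. Members were the protein-coding genes on chromosome 19 (GRCh38) whose symbol is ZNF followed by a number, and 240 of the 28131 genes in the tables met this rule. HEK293T is a human embryonic kidney line that carries the SV40 large T antigen. Poly-A RNA was sequenced from 2 libraries. In the tRF-3004b library the cells had received a 5′-phosphorylated mimetic of tRF-3004b, and in the control library they had received the non-targeting RNA GL2, made in the same way. Both RNAs were reverse transfected at 500 nM with Lipofectamine RNAiMax, and cells were collected after 120 h. No other treatment or genotype was given for either group. With 1 library per group, every difference below is between these 2 libraries, and no p-value can be given. The tRF-3004b library held 1809193 estimated counts and the control library 19609933, a 10.8-fold difference in depth, so a member with few reads in the tRF-3004b library is known only roughly.

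C2H2 zinc finger proteins read DNA through a row of fingers, in each of which a zinc ion held by a pair of cysteines and a pair of histidines folds a short helix into the major groove. Most of those encoded on chromosome 19 also carry a KRAB box at the front, which recruits the scaffold protein TRIM28 and, through it, the H3K9 methyltransferase SETDB1 and HP1 proteins. Many KRAB zinc finger proteins bind retrotransposons and keep them silent, and the genes arose by tandem duplication, so that they lie in clusters of related sequence.

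The transfected RNAs are shown first, 5′ to 3′, with bases 2 to 8 in capitals, the stretch that pairs with targets in small RNAs that act like microRNAs.

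tRF-3004b mimetic: uCAAAUCUcgguggaaccucca

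control RNA: cGUACGCGgaauacuucgauu

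A second set shows what the members' coding sequences have in common. Each line is 1 linker and finger of 84 bases (28 codons) from GENCODE 29, given with its place on GRCh38. Capitals mark the codons of helix positions -1, 2, 3 and 6, the residues that touch DNA bases. ZNF146 was the most abundant member. Among members with a mean CPM (a depth-scaled count, averaged over both libraries) of 10 or more, ZNF480, ZNF569, ZNF816 and ZNF675 were in the 10 with the highest ratio between the libraries, and ZNF607 had the second lowest.

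ZNF480 (chr19:52322010-52322093, plus strand): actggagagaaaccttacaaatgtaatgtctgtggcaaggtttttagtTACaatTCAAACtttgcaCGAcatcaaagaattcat

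ZNF569 (chr19:37413950-37414033, minus strand): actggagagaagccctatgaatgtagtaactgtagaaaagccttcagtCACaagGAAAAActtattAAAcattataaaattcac

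ZNF816 (chr19:52950770-52950853, minus strand): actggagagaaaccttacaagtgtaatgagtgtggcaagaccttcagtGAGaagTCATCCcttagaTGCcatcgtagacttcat

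ZNF675 (chr19:23654015-23654098, minus strand): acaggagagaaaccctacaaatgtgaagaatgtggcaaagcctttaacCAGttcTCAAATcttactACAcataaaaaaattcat

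ZNF146 (chr19:36236723-36236806, plus strand): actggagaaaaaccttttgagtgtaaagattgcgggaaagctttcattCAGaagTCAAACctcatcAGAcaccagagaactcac

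ZNF607 (chr19:37699306-37699389, minus strand): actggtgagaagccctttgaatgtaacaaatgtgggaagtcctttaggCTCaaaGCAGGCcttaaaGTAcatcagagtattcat

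Over the 15 pairs of these segments, identity ran from 16.7% to 83.3% in the 12 contact bases and from 62.5% to 80.6% in the other bases. The segments were picked by a pattern that fixes the linker, the cysteines and the histidines. Identity in the other bases was thus partly set by that choice, and the ranges cannot show which part is better kept. A run of 38 bases that spans the linker (capitals) and the start of a finger occurred 95 times, in the coding sequence of 32 of the 240 members.

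shared run: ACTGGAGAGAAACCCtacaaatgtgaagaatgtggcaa

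Reads that fall in such a run cannot be placed by sequence alone, and kallisto divides them among the genes that hold it.

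The members were expressed at low levels in both libraries. Median gene TPM, a level per transcript length that can be compared between genes, was 3.55 in the tRF-3004b library and 4.03 in the control library. A TPM of 10 or more was reached by 41 members in the tRF-3004b library and 40 in the control library, and 59 members were under 1 TPM in the tRF-3004b library and 60 in the control library. No counts were found for 29 members in the tRF-3004b library and for 11 in the control library, the 11 being at 0 in both. The highest control count among the 18 members at 0 only in the tRF-3004b library was 80. Of the 240 members, 197 had a CPM (counts scaled to a common library total) of 1 or more on average over the libraries and are called measured here, 139 reached 5 CPM and 94 reached 10 CPM. The remaining 43 had mean CPM values of up to 0.933, just under that limit. Of the measured members, 62 had fewer than 10 counts in the tRF-3004b library.

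Among the measured members, more were higher than lower in the tRF-3004b library, whereas over all genes more were lower. At least 2-fold higher were 32 of 197 members (16.2%, against 12.2% of all 13752 measured genes), and at least 2-fold lower were 13 (6.60%, against 14.2% of all measured genes). The log2 ratio (tRF-3004b over control) had a median of 0.15 over the members (order-statistic interval -0.0029 to 0.36) and of -0.11 over all measured genes. That interval takes genes as independent, though they come from the same libraries, and it leaves out differences between libraries. The log2 ratio was above 0 for 112 members (56.9%, against 44.5% of measured genes). The 95% interval of a gene's ratio, which covers counting error only, lay wholly above 0 for 49 members (24.9%, against 23.3% of measured genes) and wholly below 0 for 15 (7.61%, against 28.6%). For 133 members it held 0. The members had fewer counts than all measured genes, with a median of 18 against 34 in the tRF-3004b library. An interval clears 0 less readily at fewer counts, so shares based on intervals are not on equal terms. A member can pass the limit of 1 CPM on the strength of 1 library, so these shares describe the genes that passed. Of the 197 measured members, 7 had an interval wholly past 2-fold on the higher side (ZNF480, ZNF569, ZNF816, ZNF787, ZNF486, ZNF253 and ZNF880) and 0 on the lower side. Of all 13752 measured genes, 616 did so on the higher side and 268 on the lower side. The share was thus smaller in the members than over all genes on each side.

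The same held among the 94 members with a mean CPM of 10 or more, which are counted best and are called well counted here. Here 10 members were at least 2-fold higher (10.6%, against 6.11% of 8711 genes) and 1 at least 2-fold lower (1.06%, against 8.55%). The ratio was above 0 for 52 (55.3%, against 42.9%), the interval lay above 0 for 28 (29.8%, against 26.8%) and below 0 for 8 (8.51%, against 36.7%). At this level too the members had fewer counts, with a median of 35 against 88 in the tRF-3004b library. The median was 0.10 in the members and -0.12 over all genes at this level. Summed over all 240 members, the tRF-3004b library held 3379 CPM and the control library 2917 CPM, a log2 ratio of 0.21 (interval 0.17 to 0.25). Set against the other groups, ZNF genes of other chromosomes (235, of which 208 measured) had a median of -0.16, with 8.65% higher and 14.4% lower by 2-fold or more. The other protein-coding genes of chromosome 19 (1153, of which 595 measured) had a median of 0.21, with 20.2% higher and 8.57% lower by 2-fold or more. The members thus stood nearer to their neighbours on the chromosome than to other ZNF genes, but without replicates the difference cannot be tested.

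**Figure D1:**
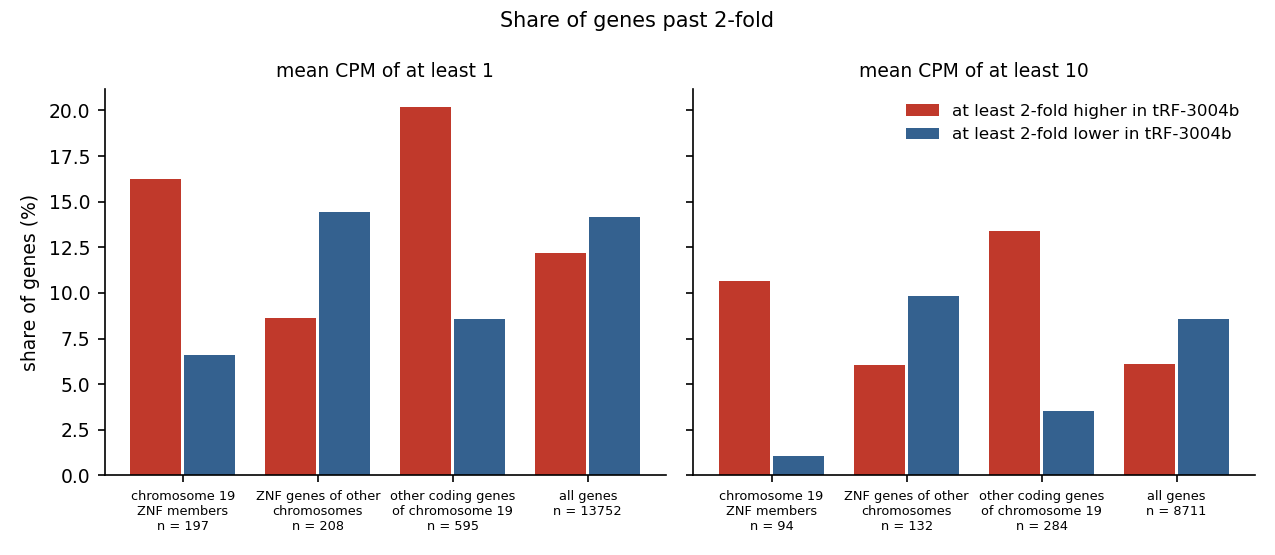
Share of genes (%, y axis) at least 2-fold higher (left bars) or lower (right bars) in the tRF-3004b library than in the control library, in 4 groups of genes, at a mean CPM of 1 or more (left panel) and of 10 or more (right panel). In both panels the left bar is the taller one for the members (16.2% against 6.60% at a mean CPM of 1 or more) and for the other coding genes of chromosome 19, and the right bar for ZNF genes of other chromosomes and for all genes.

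The sign of the members' median depended on the scale, while its place above all genes did not. On gene TPM with 1 added, the members' median was -0.12 and that of all measured genes -0.38. At least 2-fold higher were 9 of 197 members, a share just below the 4.94% of all measured genes, and 14 were lower (against 17.7%). The larger share of higher members on scaled counts (16.2% against 12.2%) was thus not seen on TPM. Of the members past 2-fold, 39.1% were thus higher, against 71.1% on scaled counts. The members lay 0.26 log2 units above all genes on both scales. In TPM the members summed to 1504 in the tRF-3004b library and to 1603 in the control library. With the trend of the ratio over transcript length and GC content removed, 43 members were at least 2-fold higher and 12 lower, and the median was 0.40.

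Other properties of the libraries moved along with this. All 8 HEK293T markers were detected in both libraries, at a summed 1390 CPM in the tRF-3004b library and 1846 CPM in the control library. VIM gave 1740 of the 2470 summed counts in the tRF-3004b library and 28858 of 36817 in the control library, and while VIM (-0.56), NEFL (-0.88) and TUBB2B (-0.16) had log2 ratios below 0, those of the other 5 were above 0 and the median of the 8 was 0.27. Markers of cells not named by the labels were higher in the tRF-3004b library. The 6 fibroblast markers (all detected) summed to 92.3 CPM in the tRF-3004b library and 9.53 CPM in the control library, and the 5 blood markers (all detected) to 29.8 CPM in the tRF-3004b library and 3.26 CPM in the control library. The 5 epithelial markers summed to 34.9 CPM in the tRF-3004b library and 10.5 CPM in the control library, with KRT5 at 0 in both. Their part in the members' values was not tested. In bulk RNA, a change in the share of some cells and a change in RNA per cell cannot be told apart.

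The member with the largest well-counted difference was ZNF480, a KRAB zinc finger gene with 10 fingers found in its coding sequence. It had 115 counts and 24.6 TPM in the tRF-3004b library, against 229 counts and 5.53 TPM in the control library. On scaled counts this was 5.60-fold higher, with a log2 ratio of 2.49 (interval 2.16 to 2.82). All its counts fell in 1 of 3 annotated transcripts in both libraries, so the value does not rest on how reads were divided among isoforms. Its neighbour ZNF766, with 35 counts in the tRF-3004b library and 303 in the control library, had a log2 ratio of 0.37 (interval -0.17 to 0.88), which includes 0. On the other side lies ZNF610, with 1 count in the tRF-3004b library and 7 in the control library. Beyond it, ZNF880 had 5 counts in the tRF-3004b library and 4 in the control library, a log2 ratio of 3.35 (interval 1.59 to 6.14). ZNF880 was thus the highest of all members, on very few counts.

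ZNF569, a KRAB protein with 18 fingers, had 102 counts and 25.6 TPM in the tRF-3004b library, against 318 counts and 8.99 TPM in the control library. Its log2 ratio was 1.84 (interval 1.51 to 2.17). ZNF568, a member of the same cluster whose mouse counterpart silences a placental transcript of Igf2, had 26 counts in the tRF-3004b library and 329 in the control library, a log2 ratio of -0.17 (interval -0.81 to 0.40). Its interval held 0 and did not overlap that of ZNF569. ZNF816 had 29 counts and 11.8 TPM in the tRF-3004b library, against 88 counts and 4.06 TPM in the control library, a log2 ratio of 1.87 (interval 1.23 to 2.51). A readthrough gene that joins ZNF816 to ZNF321P shares 10.5% of its 31-base words and held no counts, so the sum over both is the same.

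ZNF675, which encodes a protein that binds TRAF6 and dampens its signalling, was at the highest level of the upper group. It had 75 counts and 34.0 TPM in the tRF-3004b library, against 367 counts and 18.8 TPM in the control library, and a log2 ratio of 1.19 (interval 0.82 to 1.56). The other members of the 10 highest were ZNF17 (1.40), ZNF468 (1.37), ZNF790 (1.17), ZNF493 (1.13), ZNF888 (1.04) and ZNF160 (1.04), all log2 ratios with intervals above 0. ZNF160 is known as a repressor of the TLR4 gene, and had 26 counts in the tRF-3004b library and 141 in the control library. Of the 10, 5 lie in the same stretch of the long arm (ZNF480, ZNF468, ZNF888, ZNF816 and ZNF160). This stretch, cluster 8 below, holds 19 of the 94 well-counted members, the most of any cluster. The ratios of ZNF468 and ZNF888 are lower in sum with genes that share their sequence, as given below.

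**Figure D2:**
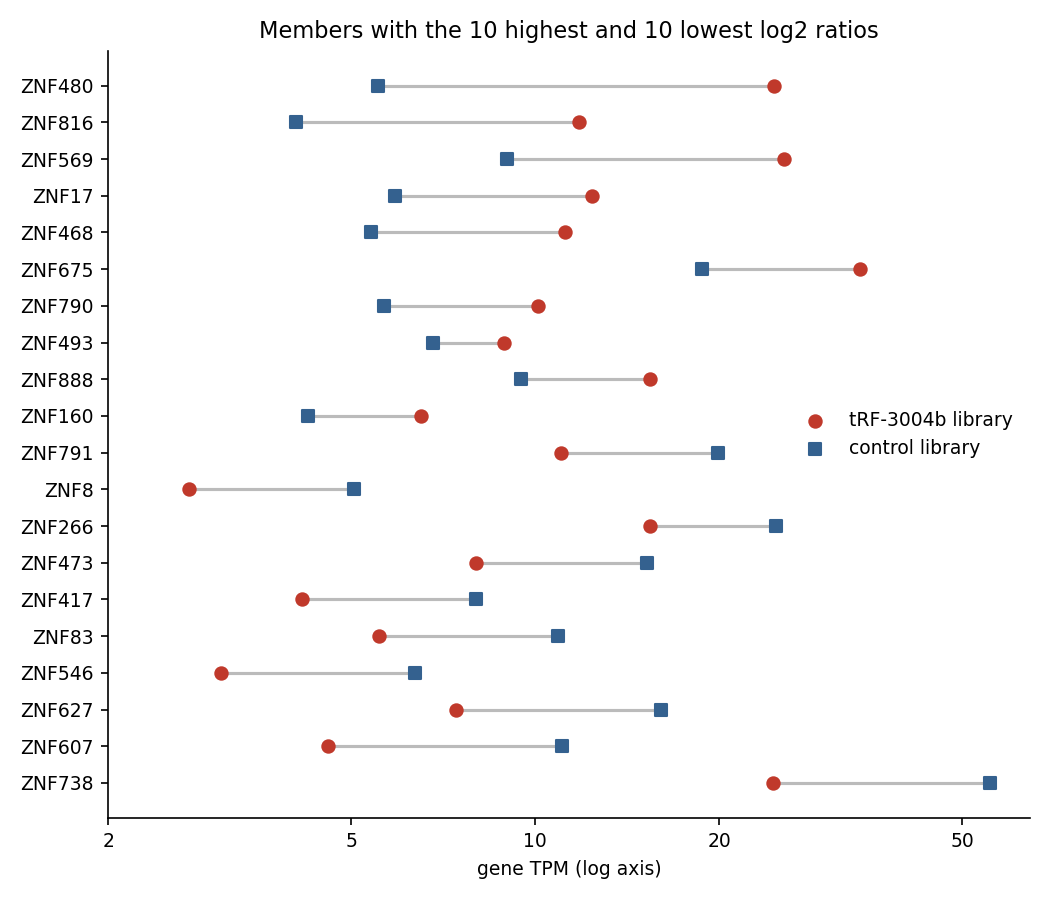
Gene TPM (x axis, log scale) of the members with the 10 highest and the 10 lowest log2 ratios among those with a mean CPM of 10 or more, with a round point for the tRF-3004b library and a square for the control library. The distance is widest for ZNF480, at 24.6 TPM in the tRF-3004b library and 5.53 TPM in the control library.

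At the lower end, ZNF738 was the only member with a mean CPM of 10 or more that was at least 2-fold lower. It had 54 counts and 24.5 TPM in the tRF-3004b library, against 1224 counts and 55.5 TPM in the control library, and a log2 ratio of -1.01 (interval -1.43 to -0.62). Its longest coding sequence held a KRAB pattern and no finger. All 4 of its annotated transcripts had counts in both libraries. The next member along the chromosome, ZNF493, was 2.19-fold higher, with 40 counts in the tRF-3004b library and 204 in the control library, so adjoining members lay at opposite ends of the list.

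ZNF607 followed, with 18 counts and 4.57 TPM in the tRF-3004b library, against 395 counts and 11.1 TPM in the control library, and a log2 ratio of -0.96 (interval -1.74 to -0.29). ZNF627 had a log2 ratio of -0.78, ZNF546 of -0.72, ZNF473 of -0.59, ZNF266 of -0.55 and ZNF791 of -0.51, each with an interval below 0. ZNF473 is known for its part in the 3′ end processing of histone transcripts, and had 35 counts in the tRF-3004b library and 593 in the control library. ZNF83 (-0.70), ZNF417 (-0.61) and ZNF8 (-0.54) complete the 10 lowest, and their intervals include 0. At a mean CPM of 10 or more the members thus reached 2.49 at the top and -1.01 at the bottom. Over all measured members, many with few counts, the range was from -5.61 to 3.35.

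ZNF582, a KRAB gene whose promoter methylation is used as a marker in cervical screening, was the only member with no counts in 1 library and at least 50 in the other. It had 0 counts in the tRF-3004b library and 80 in the control library, which, set against a floor of 3 counts, makes it at least 2.38-fold lower. The 95% interval, a stricter limit, ended at a log2 ratio of -0.92, short of 2-fold.

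The most abundant member in both libraries was ZNF146, which encodes a short protein made of fingers without a KRAB box. It had 550 counts and 145 TPM in the tRF-3004b library, against 3266 counts and 99.1 TPM in the control library. The log2 ratio was 0.92 (interval 0.79 to 1.05), and 0.55 on gene TPM with 1 added. kallisto divided its reads among 3 transcripts. The longest, of 3880 bases, had 387 counts in the tRF-3004b library and 466 in the control library, and that of 3806 bases had 162 in the tRF-3004b library and 1429 in the control library. That of 3765 bases had 0.17 in the tRF-3004b library and 1371 in the control library. In TPM the longest stood at 102 in the tRF-3004b library and 13.8 in the control library. That of 3806 bases stood at 43.6 in the tRF-3004b library and 43.3 in the control library. The gene's higher ratio thus sat mainly in the longest transcript. Whether kallisto divided the reads among the 3 rightly cannot be told from the counts.

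Of the other 5 of the 6 most abundant members, 4 differed less. ZNF302 had 49.6 TPM in the tRF-3004b library and 61.3 TPM in the control library, and ZNF121 had 36.9 TPM in the tRF-3004b library and 46.2 TPM in the control library. ZNF714 had 34.8 TPM in the tRF-3004b library and 36.2 TPM in the control library. Their log2 ratios on scaled counts were 0.07 for ZNF302, 0.02 for ZNF121 and 0.12 for ZNF714, all with intervals that include 0. ZNF507, with 25.6 TPM in the tRF-3004b library and 35.6 TPM in the control library, had a log2 ratio of -0.13 (interval -0.35 to 0.08). ZNF738, described above, was the only one of the 6 that was lower with an interval below 0.

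Members with a described function had ratios on both sides of 0. ZNF91, which represses SVA retrotransposons, had 12 counts in the tRF-3004b library and 53 in the control library, a log2 ratio of 1.32 (interval 0.31 to 2.27). ZNF93, which represses LINE-1 elements, had 0 counts in the tRF-3004b library and 1 in the control library, too few for any comparison. ZNF274, which brings SETDB1 to the 3′ ends of zinc finger genes themselves, had 33 counts in the tRF-3004b library and 448 in the control library, a log2 ratio of -0.27 (interval -0.83 to 0.24).

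ZNF224, a repressor of the aldolase A gene, had 0.64 (interval 0.17 to 1.09) on its own counts, but 48.5% of its words are shared with ZNF225-AS1. ZNF420, an inhibitor of p53, had a log2 ratio of 0.48 (interval -0.12 to 1.03) and ZNF350, a partner of BRCA1 in repression, of 0.31 (interval -0.95 to 1.37). ZNF331, an imprinted gene, had 1 count in the tRF-3004b library and 34 in the control library, with an interval from -6.94 to 0.98. Apart from ZNF91 and ZNF224, the intervals of these genes held 0.

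Along the chromosome, 228 of the 240 members fell into 10 clusters, taken as runs of at least 3 members with gaps of at most 500000 bases, and 12 lay outside. Clusters are numbered from the tip of the short arm to the tip of the long arm. The median log2 ratio of the measured members was above 0 in 5 clusters (numbers 3, 4, 6, 7 and 8) and below 0 in the other 5. At a mean CPM of 5 or more it was above 0 in 7 of the 10, with clusters 9 and 10 added. The members past 2-fold that are named below beyond the 10 highest and 10 lowest complete each cluster's count, and were chosen after their values were seen.

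**Figure D3:**
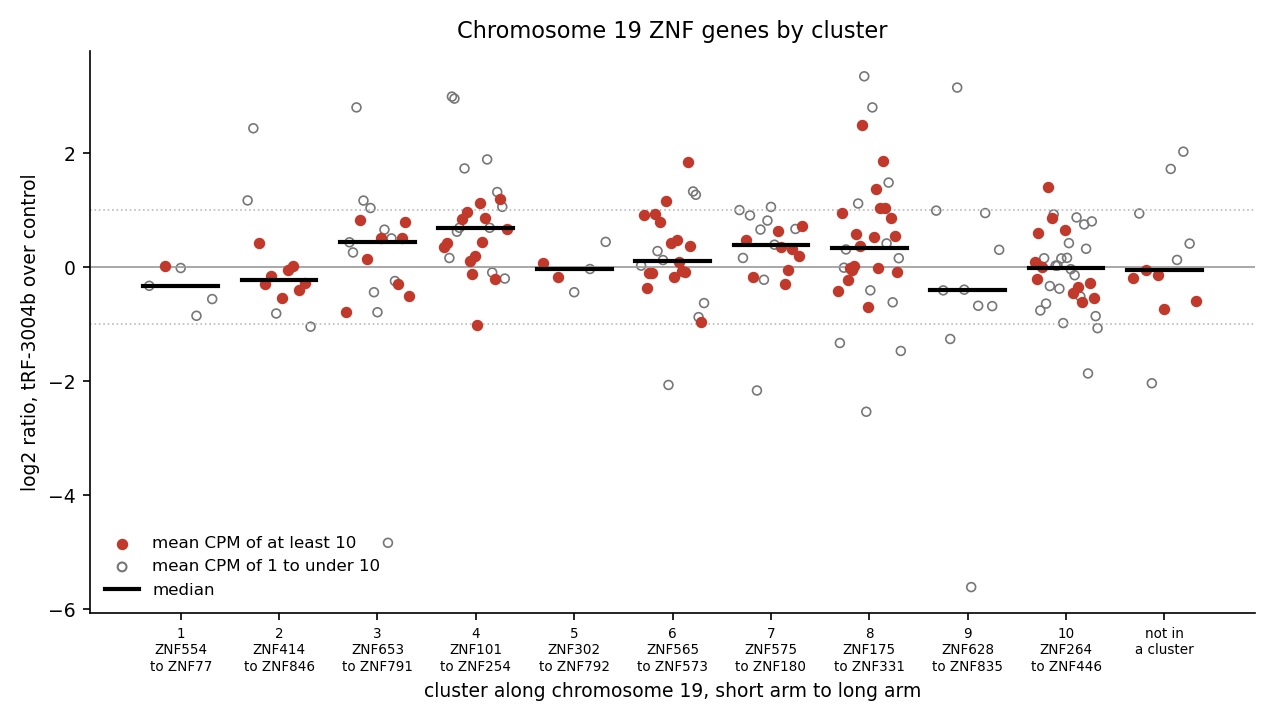
Log2 ratio (y axis, tRF-3004b over control library) of the 197 measured members by cluster (x axis, short arm to long arm), with filled points at a mean CPM of at least 10, open points below that, a bar at each median and dotted lines at 2-fold. The medians run from -0.40 in cluster 9 to 0.69 in cluster 4, and the widest scatter is in open points, which have few counts.

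The highest median among measured members was in cluster 4 (chromosome 19, 19668153 to 24129968), which lies near the centromere on the short arm and holds ZNF91 and its relatives, a group that expanded in primates. It has 37 members, 26 of them measured, with a median of 0.69. At a mean CPM of 5 or more its median was 0.43, with clusters 3 and 7 at 0.44, and at 10 or more cluster 8 was highest, at 0.53 against 0.43, so its first place does not hold at higher counts. Of the 26, 21 were above 0 (80.8%, against 44.5% of all measured genes), 8 were at least 2-fold higher (30.8%, against 12.2%) and 1, ZNF738, was at least 2-fold lower (3.85%, against 14.2%). Besides ZNF675, ZNF493 and ZNF91, those higher were ZNF85 (1.73), ZNF43 (1.89), ZNF486 (2.96), ZNF253 (2.99) and ZNF681 (1.06). ZNF253 had only 6 counts in the tRF-3004b library and 7 in the control library, and ZNF486 had 10 in the tRF-3004b library and 13 in the control library. Summed, the cluster held 602 CPM in the tRF-3004b library and 471 CPM in the control library, a log2 ratio of 0.35 (interval 0.26 to 0.45). Its members had the lowest median GC content of the 10 clusters, 37.6%, and 35 of the 37 share sequence with another gene. On gene TPM with 1 added, the cluster's median was 0.19.

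Cluster 8 (51571283 to 53580269) had 39 members, of which 32 were measured, and a median of 0.34. At least 2-fold higher were 9, namely ZNF480, ZNF816, ZNF468, ZNF888, ZNF160, ZNF880, ZNF600, ZNF665 and ZNF836, and 3 were at least 2-fold lower, ZNF701, ZNF577 and ZNF331. These are 28.1% and 9.38% of its measured members, against 12.2% and 14.2% of all measured genes. Its sum was 509 CPM in the tRF-3004b library and 374 CPM in the control library, a log2 ratio of 0.44 (interval 0.34 to 0.54). ZNF577, the lowest with a mean CPM of 5 or more, had 8 counts in the tRF-3004b library and 228 in the control library, a log2 ratio of -1.33 (interval -2.57 to -0.34). High and low members thus stood side by side in the cluster with the most members past 2-fold.

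Cluster 6 (36182060 to 37779586) had 24 members, all measured, a median of 0.11 and the highest ratio of sums, 753 CPM in the tRF-3004b library against 542 CPM in the control library (log2 ratio 0.47, interval 0.39 to 0.56). ZNF146 gave 550 of its 1338 counts in the tRF-3004b library and 3266 of its 10813 in the control library. At least 2-fold higher were ZNF569, ZNF793, ZNF540 and ZNF790 (16.7% of its measured members, against 12.2% of all measured genes). At least 2-fold lower was ZNF345 (4.17%, against 14.2%), with 4 counts in the tRF-3004b library and 193 in the control library (log2 ratio -2.06, interval -3.99 to -0.72). ZNF790 and ZNF345 lie next to each other, and their annotated spans overlap. Without the strand setting of the counting, reads of the overlap cannot be told apart.

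Clusters 7 and 3 also had medians above 0. Cluster 7 (43530835 to 44500522, 23 members) had a median of 0.40 and held 225 CPM in the tRF-3004b library, against 182 CPM in the control library (log2 ratio 0.30, interval 0.15 to 0.45). Its ZNF223 and ZNF576 were at least 2-fold higher (10.5% of its measured members, against 12.2% of all measured genes). ZNF221, with 1 count in the tRF-3004b library, was at least 2-fold lower (5.26%, against 14.2%). ZNF234 was the lowest with a mean CPM of 5 or more, at -0.29. Cluster 3 (11483429 to 12633834, 25 members) had a median of 0.44, but its sum hardly differed, at 185 CPM in the tRF-3004b library and 179 CPM in the control library (interval -0.12 to 0.22). Its highest member with a mean CPM of 5 or more was ZNF440, at 0.82 (interval 0.25 to 1.36), and its lowest was ZNF627. At lower counts ZNF491, ZNF69 and ZNF433 were at least 2-fold higher (15.8% of its measured members, against 12.2% of all measured genes). ZNF442, with 0 counts in the tRF-3004b library and 46 in the control library, was lower (5.26%, against 14.2%).

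The clusters with a median below 0 were 1, 2, 5, 9 and 10. Cluster 10 (57191500 to 58489533), at the end of the long arm, is the largest, with 41 members and 34 measured. Its median was -0.02, and its sums were 332 CPM in the tRF-3004b library and 339 CPM in the control library (interval -0.15 to 0.09). ZNF17 was at least 2-fold higher (2.94% of its measured members, against 12.2% of all measured genes). ZNF329 and ZNF324 were at least 2-fold lower (5.88%, against 14.2%), and ZNF543 was the lowest with a mean CPM of 5 or more, at -0.76. Cluster 2 (8509678 to 9786160, 13 members) had a median of -0.22, with ZNF317 highest at 0.43 (interval 0.08 to 0.76) and ZNF266 lowest among members of 5 mean CPM or more. Below that level, ZNF558 and ZNF414 were at least 2-fold higher (16.7%) and ZNF846 lower (8.33%), on at most 5 counts in the tRF-3004b library. Clusters 1 (2819868 to 2944971) and 5 (34675979 to 34964229) have 5 members each, all measured, with medians of -0.33 and -0.03 and none past 2-fold. In cluster 1 the range was from -0.85 (ZNF57) to 0.02 (ZNF555), and in cluster 5 ZNF181 and ZNF302 had intervals that include 0. Outside the clusters, ZNF574 (1.72) and ZNF296 (2.03) were at least 2-fold higher and ZNF536 (-2.03) lower. These were 18.2% and 9.09% of the measured members there.

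Cluster 9 (55476617 to 56671757) had the lowest median among measured members, -0.40, over 10 of its 16 members, none with a mean CPM of 10 or more. At a mean CPM of 5 or more its median was 0.14, so its direction rests on members with few counts. It differed in make-up, with a median GC content of 58.0% and a KRAB pattern in 5 of its 16 members. It held ZNF582 and also ZNF787, which had 17 counts and 9.29 TPM in the tRF-3004b library, against 20 counts and 1.23 TPM in the control library. The log2 ratio of ZNF787 was 3.15 (interval 2.23 to 4.26). ZNF580, with 2 counts in the tRF-3004b library and 56 in the control library, was also at least 2-fold lower (-1.26), and ZNF470, with the lowest ratio among members of 5 mean CPM or more, stood at -0.68 (interval -1.62 to 0.11). The sums, 47.8 CPM in the tRF-3004b library and 49.5 CPM in the control library, gave an interval from -0.39 to 0.27.

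Longer transcripts had lower ratios over all genes, and members stood above genes of like length. Among genes with a mean CPM of 10 or more, cut into 5 equal bins by transcript length, the median log2 ratio of all genes was 0.49 in the shortest bin, which holds no member, and -0.43 in the longest. In the bin from 1962 to 3031 bases the median was 0.32 for 17 members and 0.04 for all genes, and from 3031 to 4266 bases it was 0.43 for 25 members and -0.15 for all genes. From 4266 to 6136 bases it was 0.10 for 35 members and -0.31 for all genes, and above 6136 bases -0.13 for 17 members and -0.43 for all genes. The members were above all genes in all 4 bins that hold any.

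By GC content the pattern was less even. Members in the bin of lowest GC content, which starts at 30.9%, had a median of 0.43 (39 members) against -0.12 for all genes. In the bin from 47.7% to 53.6%, which holds only 6 members, it was -0.24 against -0.13. With the joint trend over length and GC removed, the median of the measured members was 0.40, that of ZNF genes of other chromosomes -0.02, that of the other coding genes of chromosome 19 0.05 and that of all genes -0.01. The neighbours on the chromosome are shorter and richer in GC (median 2409 bases and 60.4%) than the members (4003 bases and 42.2%). The members' place beside their neighbours in the plain ratios therefore did not carry over to the trend-corrected ones.

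**Figure D4:**
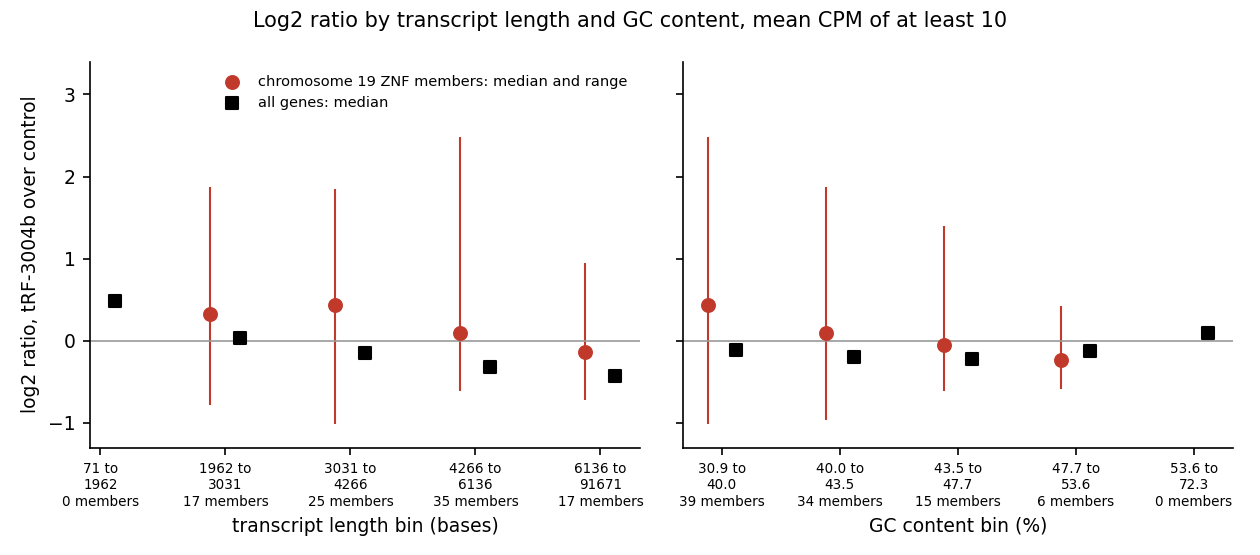
Median log2 ratio (y axis, tRF-3004b over control library) of genes with a mean CPM of 10 or more by transcript length (left, bases) and GC content (right, %), as round points with lines from the lowest to the highest for members and squares for all genes. In every length bin that holds members their median lies above that of all genes, from 0.32 against 0.04 in the bin from 1962 to 3031 bases to -0.13 against -0.43 in the longest.

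Sequence shared between genes limits what the counts of single members can say. A member was marked if it shared at least 50 words of 31 bases, a chosen cut, with another gene. Members whose symbol is part of a readthrough gene were also marked, which made 140. Of these, 129 shared at least 50 words with another ZNF gene, readthrough genes included. At least 1 word was shared by 225 members and at least 10% of all words by 35. The 118 marked members that were measured had a median log2 ratio of 0.16, with 21 at least 2-fold higher (17.8%) and 4 lower (3.39%). The 79 without such sharing had a median of -0.01, with 11 higher (13.9%) and 9 lower (11.4%). Over all measured genes the median was -0.11, with 12.2% higher and 14.2% lower, so the members without sharing were nearer to that background than those with it, and this difference was not tested. Leaving out only members that share at least 10% of their words left a median of 0.16, with 27 higher and 12 lower.

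Where members share much, the sum over the sharing genes is the safer value. ZNF468 shares 13.6% of its words with ZNF28, and both together had 73 counts in the tRF-3004b library and 398 in the control library, a log2 ratio of 1.04 (interval 0.66 to 1.41) against 1.37 for ZNF468 alone. ZNF888 with ZNF701 and ZNF813 had 0.60 (interval 0.09 to 1.07) against 1.04 alone. ZNF701 on its own was at the other extreme, with 1 count in the tRF-3004b library and 73 in the control library (-2.53). ZNF600, at 2.80 alone on 4 counts in the tRF-3004b library and 5 in the control library, had -0.01 (interval -0.87 to 0.76) in sum with ZNF611 and ZNF808. The sum of ZNF224 and ZNF225-AS1 was 0.22 (interval -0.24 to 0.66), so the difference of ZNF224 was not seen in it.

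ZNF417 and ZNF587 are near copies, 99.1% identical over 1728 aligned coding bases. The windows of 90 bases below differ at 3 places, in capitals, and are printed to show how few bases tell the genes apart.

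ZNF417 (chr19:57909314-57909403, minus strand): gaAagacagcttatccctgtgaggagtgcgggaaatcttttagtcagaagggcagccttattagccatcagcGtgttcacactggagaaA

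ZNF587 (chr19:57859287-57859376, plus strand): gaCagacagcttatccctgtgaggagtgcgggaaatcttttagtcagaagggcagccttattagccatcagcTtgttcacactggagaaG

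ZNF417 had 19 counts in the tRF-3004b library and 327 in the control library, and ZNF587 had 50 in the tRF-3004b library and 713 in the control library. Each alone had an interval that includes 0, at -0.61 for ZNF417 and -0.34 for ZNF587. Their sum, 69 counts in the tRF-3004b library and 1040 in the control library, had a log2 ratio of -0.42 (interval -0.80 to -0.07), so the pair together was lower. ZNF561 and ZNF562, another related pair, were also lower in sum (-0.34, interval -0.57 to -0.11). Further, 16 members have an antisense gene in the tables, whose reads cannot be told apart without the strand setting. A readthrough gene is listed for 9 members, and shares their strand and sequence.

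The proteins give a few features that the choice of members did not use. Coding sequences of all 240 members held 3031 finger patterns in all, with a median of 12 per member and up to 39 in ZNF729, and 2 (ZNF69 and ZNF738) held none. The linker between fingers was found 1614 times. A KRAB pattern was found in 197 members (82.1%). Measured members with a KRAB pattern (166) had a median log2 ratio of 0.16 and those without (31) of 0.13. Members with 15 or more fingers (63) had a median of 0.42, with 15 at least 2-fold higher (23.8%) and 2 lower (3.17%). Those with 10 to 14 fingers (86) had a median of 0.16, with 8 higher (9.30%) and 5 lower (5.81%), and those with 9 or fewer (48) had a median of -0.06, with 9 higher (18.8%) and 6 lower (12.5%). Over all measured genes 12.2% were higher and 14.2% lower, and the share of higher members did not follow the number of fingers in order. The number of fingers and the ratio had a Spearman correlation of 0.09 over the 197 measured members, a weak relation among genes that share both libraries.

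The word complementary to bases 2 to 8 of the mimetic, AGATTTG, was looked for in the members' transcripts. It occurred in the coding sequence of 17 measured members (8.63%, against 13.1% of 12356 measured genes) and in the 3′ UTR of 23 (11.7%, against 14.9%). Members with the word in the coding sequence had a median log2 ratio of -0.22, and the 180 without it of 0.16. For the 3′ UTR the medians were 0.00 with the word and 0.16 without. Past 2-fold were 2 higher (11.8%) and 1 lower (5.88%) of the 17 with the word in the coding sequence, and 0 higher and 1 lower (4.35%, ZNF738) of the 23 with it in the 3′ UTR, against 12.2% higher and 14.2% lower of all measured genes. ZNF738 held the word 2 times in its 3′ UTR and 1 time in its coding sequence, and ZNF607 held it 1 time in each. Of the 10 lowest members, ZNF546, ZNF791 and ZNF8 also held it, the other 5 did not, and of the 10 highest 0 did. Both sets were picked by their ratio from the 94 well-counted members. Of these 94, 7 held the word in the coding sequence and 17 in the 3′ UTR, and the contrast was not tested. Members with the word in the 3′ UTR had longer transcripts, with a median of 4706 bases, and the part of length in these medians was not tested.

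The partners of KRAB proteins lay, as a group, near the median of all genes. All 38 genes of a list of TRIM28, SETDB1, HP1, NuRD, HUSH and DNA and H3K9 methylation factors were measured, with a median log2 ratio of -0.07 (order-statistic interval -0.25 to 0.21) against -0.11 over all measured genes. As above, this interval takes genes as independent and leaves out differences between libraries. By 2-fold or more, 2 were higher (5.26%, against 12.2% of all measured genes) and 1 was lower (2.63%, against 14.2%). TRIM28 had 60.4 TPM in the tRF-3004b library and 80.8 TPM in the control library, a log2 ratio of -0.08 on scaled counts (interval -0.29 to 0.13), and SETDB1 had -0.09 (interval -0.42 to 0.21). The scaffold and its methyltransferase thus differed less than their counting error.

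Single partners lay further out. CBX3, the HP1 gamma gene, had 809 TPM in the tRF-3004b library and 467 TPM in the control library (log2 ratio 1.13, interval 1.05 to 1.21), whereas CBX5, the HP1 alpha gene, had 238 CPM in the tRF-3004b library and 464 CPM in the control library (-0.96, interval -1.11 to -0.82). The ratios of these HP1 genes pointed in opposite directions. SUMO2, a modifier that TRIM28 needs to hold its partners, had 0.73, and ATRX, a remodeller that loads histone H3.3 with DAXX, had 0.53. MTA1, a NuRD subunit, was lowest, with 17.0 TPM in the tRF-3004b library and 57.8 TPM in the control library (-1.43, interval -1.88 to -1.01), and DNMT3A, a de novo DNA methyltransferase, had -0.84 (interval -1.50 to -0.26). MBD3, another NuRD gene, was the second of those at least 2-fold higher (1.08, interval 0.38 to 1.75).

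Member promoters were read for short words that bind common factors. Promoter sequences of RefSeq (GRCh38.p14, 250 bases before to 50 after the start) matched 210 of the 240 members. Words were searched on both strands, and were chosen after counting them in these promoters. The ETS core CCGGAAG was in 44.3% of member promoters, against 36.9% of those of ZNF genes on other chromosomes, 13.4% of those of other coding genes of chromosome 19 and 10.7% of all promoters of that length. The word ACTACA was in 27.1% of member promoters, against 11.3% of those of ZNF genes elsewhere, 6.46% of those of other coding genes of chromosome 19 and 8.95% of all. Over all protein-coding genes the ETS core was in 14.2% and ACTACA in 8.51%. CCAAT was in 52.9% of member promoters, against 44.1% of those of ZNF genes elsewhere and 36.4% of those of all protein-coding genes. TATAAA was in 1.90% of member promoters, against 4.62% for ZNF genes elsewhere and 9.63% for all protein-coding genes. GGGGCGGGG was in 24.8% against 22.4%, TGACGTCA in 3.33% against 2.59%, and the NRF1 motif in 2.38% against 1.75%, with all protein-coding genes second each time. Among ZNF genes elsewhere these were in 21.5%, 4.62% and 3.08%, in the same order. Measured members with the ETS core had a median log2 ratio of 0.16 and those without of 0.10, and for ACTACA the medians were -0.04 with the word and 0.19 without. The promoters of ZNF569 and ZNF816, both among the highest members, are shown with the ACTACA word of the first (on the opposite strand, as TGTAGT) and the ETS core of the second in capitals.

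ZNF569 promoter (chr19:37467395-37467694, minus strand): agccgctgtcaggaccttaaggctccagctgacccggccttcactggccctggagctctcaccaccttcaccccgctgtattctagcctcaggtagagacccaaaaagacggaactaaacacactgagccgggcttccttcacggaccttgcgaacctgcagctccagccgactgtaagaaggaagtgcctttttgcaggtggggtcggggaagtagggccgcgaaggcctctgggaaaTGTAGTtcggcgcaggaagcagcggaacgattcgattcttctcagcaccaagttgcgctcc

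ZNF816 promoter (chr19:52962832-52963131, minus strand): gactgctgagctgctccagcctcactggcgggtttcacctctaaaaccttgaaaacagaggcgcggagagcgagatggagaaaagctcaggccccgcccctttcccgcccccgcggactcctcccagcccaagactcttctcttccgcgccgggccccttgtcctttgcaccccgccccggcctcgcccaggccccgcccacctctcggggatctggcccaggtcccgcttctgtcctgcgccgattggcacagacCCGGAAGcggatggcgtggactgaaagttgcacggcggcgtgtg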

How the data were processed

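Poly-A RNA of 1 tRF-3004b and 1 control library was analysed. kallisto 0.46.1 and the build GRCh38 (hg38) are named in the submitters' processing notes. The authors' tables list 70866 RefSeq transcripts, each with an estimated count, per the file headers, which need not be whole because reads are shared among transcripts with common sequence. The deposited TPM values are scaled to length and to a fixed total. The labels name a directional kit, but how strand and trimming were set is not given in the sources used here.

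Transcripts were joined to genes with a RefSeq table (GRCh38.p14, 70245 transcripts) and GENCODE 29 (310 transcripts), and 311 unnamed ones were left out (0.0617% of counts in the tRF-3004b library and 0.0608% in the control library). Counts were summed per symbol and rounded. Library sizes were scaled by edgeR 4.0.16 TMM factors in R 4.3.3 (0.983 for the tRF-3004b and 1.02 for the control library), without edgeR's test. Log2 ratios carry 0.5 added counts at a common size. Their 95% limits are the Clopper-Pearson limits of the share of reads, turned into a ratio. As no molecular identifiers were used, limits and floors reflect counting error alone. The trend over length and GC was fitted with mgcv 1.9.3 at a mean CPM of 10 or more. Words, fingers (C2H2 pattern), linkers and the KRAB pattern (first 150 residues, up to 4 mismatches) were counted in GENCODE 29 transcripts and translations of their longest coding sequences, in place of RefSeq proteins, which were not used here. The log2 ratios and their limits were tested on simulated counts that vary by counting error only, and the cluster rule on a small made-up list. The other steps were not tested in this way.

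Named members are the 10 highest and 10 lowest ratios at a mean CPM of 10 or more, the 6 highest mean TPM, each cluster's highest and lowest at a mean CPM of 5 or more, those at 0 in 1 library with at least 50 counts in the other, and 12 with a known role or chosen by name. The members and lists were chosen with earlier results of these data known. The settings varied were the scaling (total counts or size factors of DESeq2 1.42.0), 5 added counts, gene TPM with 1 added, the trend removed, other CPM limits, other gaps and other treatments of shared sequence. Python 3.11.15 with numpy 2.4.6, pandas 2.3.3, scipy 1.17.1 and matplotlib 3.10.9 was used.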

Additional observations from a re-analysis of the deposited data

How the results depend on the processing

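No paired analysis was possible because each group has 1 library, and for the same reason no replicate could be left out. The main values were 32 members at least 2-fold higher, 13 lower, a median log2 ratio of 0.15 and 5 clusters with a median above 0. The number lower was 8 of 197 with 5 counts added (against 11.8% of all measured genes). On gene TPM with 1 added, the number higher was 9 of 197 (against 4.94% of all measured genes), the median -0.12 and the clusters above 0 numbered 3. With the length and GC trend removed, the median was 0.40 and 8 clusters were above 0. At a mean CPM of at least 5 the numbers were 17 higher (12.2%) and 4 lower (2.88%). Over all genes at that level 6.87% were higher and 10.5% lower. At 10 the members' numbers were 10 and 1, and with only 1 count required 26 were lower. Without members that share sequence, 11 were higher and the median was -0.0055. The median of all measured genes moved from -0.11 to -0.38 on TPM, and was -0.16 with total counts and -0.08 with DESeq2 size factors. Members marked as sharing sequence or named in a readthrough gene numbered 140 at 50 words and 225 at 1 word. Those sharing at least 10% of words numbered 35, a rule chosen after seeing the data. Summed over sharing genes, the median of marked measured members was 0.23 against 0.16. The median of the KRAB partner list was -0.34 on TPM against -0.07. Gaps of 250000 and 1000000 bases gave 13 and 9 clusters, 7 and 5 of them with a median above 0. At a mean CPM of 5 or more, 7 of 10 clusters were above 0, cluster 9 at 0.14 and cluster 10 at 0.01, and at 10 or more cluster 1, with 1 such member, was at 0.02. Of the 47 named members, 8 moved outside their own interval on TPM and 4 with the trend removed, and 0 did so with total counts, DESeq2 size factors or 5 added counts. The cause of these shifts was not tested. Depth limits the tRF-3004b library most, where 62 measured members had fewer than 10 counts.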
